A study of Arabidopsis thaliana with 3 samples.

Results

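The genes described are 45 members of the basic leucine zipper (bZIP) transcription factor family of Arabidopsis thaliana, out of 27444 protein-coding genes on chromosomes 1 to 5. A gene was taken when its symbol or a synonym in the RefSeq gene table is BZIP followed by a number, with or without the prefix AT, and 2 loci that carry such a name (AT2G36270 and AT4G35900) were left out. The rule uses no measured value, although the family was picked with earlier results of these data known. BDH1-FLAG was mapped by chromatin immunoprecipitation and sequencing (ChIP-seq) with an anti-FLAG antibody in inflorescences, the flowering shoots, of plants grown on soil under long days. Of the 3 samples, 2 came from plants of the bdh1-1 mutant background that carry BDH1-FLAG, and each has its own list of peaks. The other sample was wild type, without the tagged protein, and was not analysed here. The promoter that drives BDH1-FLAG and the number of transgenic lines behind the replicates are not given in the labels, nor is whether the replicates came from separate plants.

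A bZIP factor holds DNA with a basic region and pairs with another bZIP protein through a zipper of regularly spaced leucines, so the family works as homodimers and heterodimers. Most plant bZIP dimers recognise sequences with an ACGT core, such as the G-box. The family is divided by sequence into groups named by letters. Groups C and S1 act in the response to low energy, B and bZIP60 in the response to unfolded protein in the endoplasmic reticulum, A in abscisic acid responses, D in defence and flower development, F in zinc supply, G in light responses, and E and I in pollen, growth and osmotic responses. BDH1 is a BCL-domain homolog that the title of the series ties to the SWI/SNF complex, a remodeller that moves or removes nucleosomes.

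There were 16653 peaks in replicate 1 and 16413 in replicate 2. A peak has an interval, a summit inside it, a fold enrichment (the authors' linear ratio) and a −log10 q, which is higher for a stronger call. The median fold enrichment of all peaks was 2.25 in replicate 1 and 2.23 in replicate 2, and the upper quartile 2.62 and 2.58. Read depth was unknown, and the tissue was a mixture of cell types, so a peak cannot be assigned to one of them. A gene has a peak here if intervals of both lists overlap it by 1 bp or more. Its value is that of its highest peak by fold enrichment, set beside its rank percentile, the percentage of peaks in the same list with a lower fold enrichment.

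Of the 45 bZIP genes, 26 had a peak in both lists (57.8%), beside 45.4% of all protein-coding genes. A peak lay over 27 of them in replicate 1, beside 48.9% of all protein-coding genes in that list, and over 26 in replicate 2, beside 49.8%. TGA9 was the gene with a peak in a single list, and 18 genes had none in either. The 26 genes came from all 9 of the lettered groups present (A to G, I and S) and bZIP60, which belongs to none of them. Genes with a peak were 3 of 3 in group G, 2 of 2 in E, 3 of 4 in C, 5 of 7 in I, 2 of 3 in B, 2 of 3 in F, 1 of 3 in A, 1 of 3 in D and 6 of 16 in S. These groups are small, and no test between them was made.

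**Figure D1:**
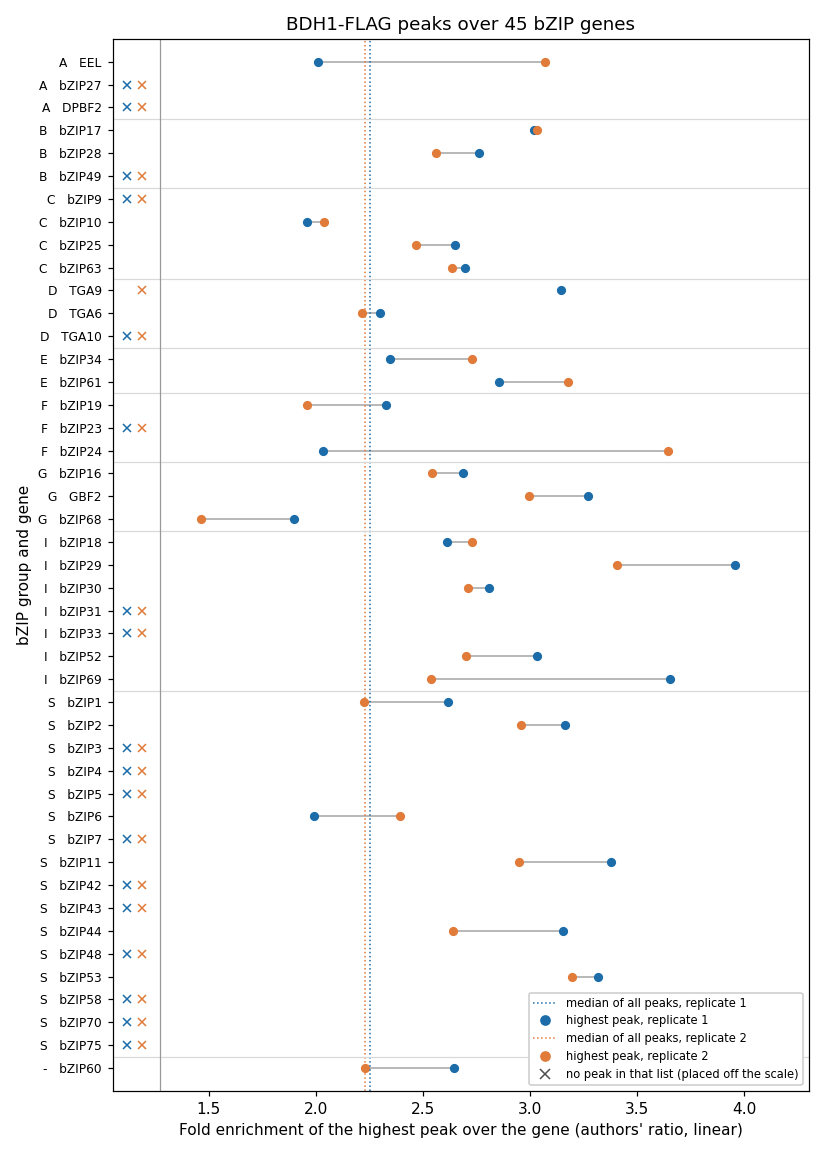
Fold enrichment (linear) of the highest BDH1-FLAG peak over each of the 45 bZIP genes, ordered by group, with a point for each replicate joined by a line, crosses for a list without a peak, and dotted lines at the median of all peaks in each list. bZIP29 stands highest in replicate 1 at 3.96, bZIP68 lowest in replicate 2 at 1.46, and most crosses are in group S.

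The highest peaks over these 26 genes were, by their median, in the upper part of each list. Their median fold enrichment was 2.69 in replicate 1 and 2.67 in replicate 2 (mean 2.68 ± 0.0139, SD, n = 2), beside 2.43 and 2.41 for the highest peaks of all 12466 protein-coding genes with a peak in both lists. The median rank percentile was 78.4 and 79.8 (mean 79.1 ± 0.938, SD, n = 2), beside 63.6 and 64.0 over those 12466 genes. The highest peak lay above the list's median in both lists in 17 of the 26 genes (65.4%), beside 52.4% of the 12466 genes. It lay above the upper quartile in both lists in 11 (42.3%), beside 24.0%. These 11 were bZIP2, bZIP11, bZIP17, bZIP29, bZIP30, bZIP44, bZIP52, bZIP53, bZIP61, bZIP63 and GBF2. Fold enrichment was higher in replicate 1 for 18 of the 26 genes. The median over the 12466 genes was also slightly higher in that list, and the share of those genes higher in replicate 1 was not counted. Across the 26 genes the 2 lists had a Pearson r of 0.468 and a Spearman rho of 0.502, as a description over genes of the same 2 libraries.

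Group S holds the smallest proteins of the family, and its genes fell into 2 kinds in these lists. The S1 subgroup is bZIP1, bZIP2, bZIP11, bZIP44 and bZIP53, whose transcripts carry a conserved upstream reading frame through which sucrose represses translation. All 5 of the S1 genes had a peak in both lists. Of the other 11 group S genes, 1 had a peak, bZIP6, and 10 had none (bZIP3, bZIP4, bZIP5, bZIP7, bZIP42, bZIP43, bZIP48, bZIP58, bZIP70 and bZIP75). The split into S1 and other genes follows the family's classification but was drawn after the values had been seen. Gene length moved with it. The S1 genes were 907 to 1370 bp long with a median of 1265 bp, and 28.7% of the protein-coding genes in that range of lengths had a peak. The other 11 were 501 to 2334 bp long with a median of 856 bp, and 37.0% of the protein-coding genes in that wider range had a peak. The upper end of that range is bZIP6, and the longest of the 10 without a peak was bZIP7 at 1399 bp. Of protein-coding genes under 1000 bp, the class that holds the median of 856 bp, 14.8% had a peak. Of those of 1000 to 1499 bp, 32.9% had one. The part of length in the split was not tested.

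Peaks over 4 of the S1 genes spread over almost the whole gene. bZIP53, a regulator of proline and amino acid metabolism and of seed maturation genes, had a fold enrichment of 3.32 in replicate 1 and 3.20 in replicate 2, with a −log10 q of 23.1 and 16.8. Its peak ran on chromosome 3 from 23091431 to 23092950 in replicate 1 and from 23090991 to 23093287 in replicate 2, covered 100% of the gene and also reached its neighbour CP12-2 in both lists. The interval therefore cannot be assigned to bZIP53 alone, although the summit lay inside it, 338 and 217 bp from the nearer gene end.

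bZIP2 (AT2G18160), also listed as GBF5 and FLORAL TRANSITION AT THE MERISTEM3, had a fold enrichment of 3.16 in replicate 1 and 2.96 in replicate 2. Its −log10 q was 23.7 and 19.0, and the peak, which ran on chromosome 2 from 7898076 to 7899389 in replicate 1 and from 7897855 to 7899368 in replicate 2, covered 94.8% and 100% of the gene. The summits were almost at the same base, at 7898829 and 7898824, and no other annotated gene was reached. bZIP11 (AT4G34590), the best studied gene for sucrose-controlled translation, had values of 3.38 and 2.95 and a −log10 q of 18.3 and 13.1. Its peak covered 89.9% and 92.5% of the gene, from 16521852 to 16523092 on chromosome 4 in replicate 1 and from 16521796 to 16523127 in replicate 2. The interval was nearly the same in both lists, but the summit was at 16522100 in replicate 1 and at 16522824 in replicate 2, nearer the opposite end of the gene.

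bZIP44, which acts in seed germination, had a fold enrichment of 3.15 in replicate 1 and 2.64 in replicate 2. Its peak was the widest among the S1 genes in both lists, 2281 bp and 2362 bp, and covered the gene in full, with the summit 261 bp and 335 bp outside the gene. No other annotated gene was reached by it. bZIP1, a factor of sugar and nitrogen signalling, was the lowest of the 5, with a fold enrichment of 2.62 and 2.22 and a rank percentile of 75.0 and 49.3. It sat near the upper quartile in replicate 1 and near the median in replicate 2, and its peak covered 55.0% and 72.7% of the gene. A peak that covered at least 80% of the gene in both lists was found over 4 of the 26 bZIP genes, all S1 genes, beside 13.1% of the 1031 protein-coding genes of S1 length with a peak and 3.97% of all 12466.

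bZIP6 was the exception among the other group S genes, with 3 separate peaks in replicate 1 and 2 in replicate 2, none above a fold enrichment of 2.39. Its highest peak was not at the same place in the 2 lists. In replicate 1 it was a peak of 1.99 whose summit lay 94 bp outside the gene and which also overlapped the neighbour GRF1, and in replicate 2 a peak of 2.39 with the summit 921 bp inside, where the long non-coding RNA gene AT2G07850 also lies. A lower peak of replicate 1, at 1.94, had its summit at 9732713, close to the summit of that peak of replicate 2 at 9732691.

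The group C genes encode the usual partners of the S1 proteins, and 3 of 4 had a peak. bZIP63, a target of the energy-sensing kinase SnRK1, had a fold enrichment of 2.70 in replicate 1 and 2.63 in replicate 2, with summits 331 and 325 bp inside the gene. bZIP25, known for the control of seed storage protein genes, had values of 2.65 and 2.47. bZIP10, known from work on cell death with LSD1, was lower, with 1.96 and 2.04, below the list's median in both replicates. bZIP9 had no peak, and the nearest interval was 5720 bp away in replicate 1 and 5763 bp away in replicate 2.

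In group I, 5 of 7 genes had a peak, and bZIP29 had the highest mean rank percentile of all members. bZIP29 (AT4G38900), which acts in cell division in leaves and roots, had a fold enrichment of 3.96 in replicate 1 and 3.41 in replicate 2 (mean 3.68 ± 0.388, SD, n = 2). Its main peak ranked 181 of 16653 and 365 of 16413 and had a −log10 q of 25.4 and 17.8. It ran on chromosome 4 from 18141027 to 18142030 in replicate 1 and from 18140849 to 18142044 in replicate 2, with the summit 352 and 380 bp inside one end of the gene. A second peak at the opposite end, with a fold enrichment of 2.24 and 2.53, had its summit 180 and 203 bp outside the gene. bZIP29 and bZIP6 were the 2 members with several peaks in both lists, as were 3.64% of all protein-coding genes.

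The other group I genes were spread below bZIP29. bZIP69 had 3.65 in replicate 1 and 2.54 in replicate 2 (mean 3.10 ± 0.790, SD, n = 2), so it ranked 370 in the first list and 4507 in the second, and its place among the members rests on replicate 1. bZIP52, which with bZIP29, bZIP30 and bZIP69 belongs to the relatives of VIP1 that respond to osmotic and mechanical stimuli, had 3.03 and 2.70. bZIP30, known as DRINK ME and as a regulator of inflorescence and gynoecium growth, had 2.81 and 2.71, above the upper quartile in both lists. bZIP18, a pollen factor, had 2.61 and 2.73. For bZIP18 the summits of the 2 lists were 362 and 360 bp inside the gene, and for bZIP30 233 and 250 bp. bZIP31 and bZIP33 had no peak, and for bZIP33 the nearest interval was 78924 bp away in replicate 1 and 124847 bp away in replicate 2.

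The membrane-bound factors of group B move to the nucleus when unfolded protein accumulates. bZIP17 had a fold enrichment of 3.02 and 3.03, the closest match between the lists among the leading genes, and its summits lay 346 and 308 bp inside the gene. bZIP28 had 2.76 and 2.56, with the summits 173 and 201 bp inside. bZIP49 had no peak, although intervals ended 1063 bp and 1056 bp away. bZIP60, whose messenger RNA is spliced by the stress sensor IRE1, had 2.65 in replicate 1 and 2.23 in replicate 2, the latter at the list's median.

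In group G, GBF2, which recognises the G-box of light-regulated promoters, had a fold enrichment of 3.27 and 2.99 and a summit 95 and 162 bp inside the gene. bZIP16 had 2.68 and 2.54, and its peak reached past the gene end to AT2G35540 in replicate 1 but not in replicate 2. bZIP68, a close relative of bZIP16, was the lowest of the 26 genes in both lists, at 1.90 and 1.46. Its peak in replicate 2 had a −log10 q of 1.32 and ranked 16394 of 16413, next to the limit of the list. The rank percentile was 94.2 and 91.6 for GBF2 and 16.9 and 0.104 for bZIP68.

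Both group E genes had broad peaks with the summit deep in the gene. bZIP61 had a fold enrichment of 2.85 in replicate 1 and 3.18 in replicate 2, from a peak of 2419 bp that covered 95.0% of the gene in replicate 1 and of 1503 bp that covered 59.1% in replicate 2. bZIP34, needed for normal pollen walls, had 2.35 and 2.73 and peaks of 1449 bp and 1096 bp. The summits lay 788 and 625 bp from the nearer end in bZIP61 and 533 and 603 bp in bZIP34. Replicate 1 had 1 broad interval over each of these genes, and replicate 2 had 2 over bZIP61 and 3 over bZIP34. The smaller interval of replicate 2 over bZIP61 had a −log10 q of 1.31, next to the limit of the list. Over bZIP34, an interval of replicate 2 from 17647135 to 17647380 lay wholly outside the interval of replicate 1. Another, from 17649062 to 17649776, had its summit 338 bp outside the gene. Intervals of at least 1000 bp in both lists were found over 8 of the 26 genes, bZIP2, bZIP11, bZIP29, bZIP34, bZIP44, bZIP52, bZIP53 and bZIP61, beside 11.5% of the 12466 genes.

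Groups F, A and D had 3 members each by the name rule, and further genes of A and D are given below. In group F, bZIP19, a zinc sensor that switches on zinc uptake genes, had a fold enrichment of 2.33 and 1.96, while its partner bZIP23 had no peak, with the nearest interval 4295 bp away in replicate 1 and 4296 bp away in replicate 2. bZIP24, known from salt stress, had 2.03 in replicate 1 and 3.64 in replicate 2, but these were different kinds of peak. In replicate 1 an interval of 251 bp reached 4.06% of the gene, and in replicate 2 an interval of 3473 bp ran over the neighbour AT3G51950 with its summit 1269 bp outside bZIP24. With an overlap of 100 bp or a summit inside the gene required, bZIP24 was no longer counted.

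In group A, EEL, an abscisic acid factor of late seed development, had a fold enrichment of 2.01 in replicate 1 and 3.07 in replicate 2. The value of replicate 2 came from an interval that covered 0.911% of EEL, with its summit 324 bp outside and the neighbour AT2G41080 beneath it. The peak present in both lists, at 17130396 to 17130641 of chromosome 2 in replicate 1 and 17130404 to 17130746 in replicate 2, had 2.01 and 1.85 and lay inside EEL, reaching into AT2G41060, which overlaps it. bZIP27, which acts in flowering, and DPBF2 (bZIP67), a seed factor, had no peak, and the nearest intervals were 6762 bp and 8339 bp away in replicate 1.

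In group D, TGA6, which acts in salicylic acid defence, had a fold enrichment of 2.298 and 2.213 with summits 188 and 215 bp inside the gene, close to the list's median in both. TGA9 and TGA10 act together in anther development, and neither had a peak in both lists. Over TGA9 the interval of replicate 1, with a fold enrichment of 3.14, covered 1.96% of the gene and had its summit 526 bp outside, with AT1G08315 and AT1G04647 also reached. In replicate 2 the nearest interval ended 264 bp short of TGA9. For TGA10 the nearest interval was 843 bp away in replicate 1 and 785 bp away in replicate 2.

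**Figure D2:**
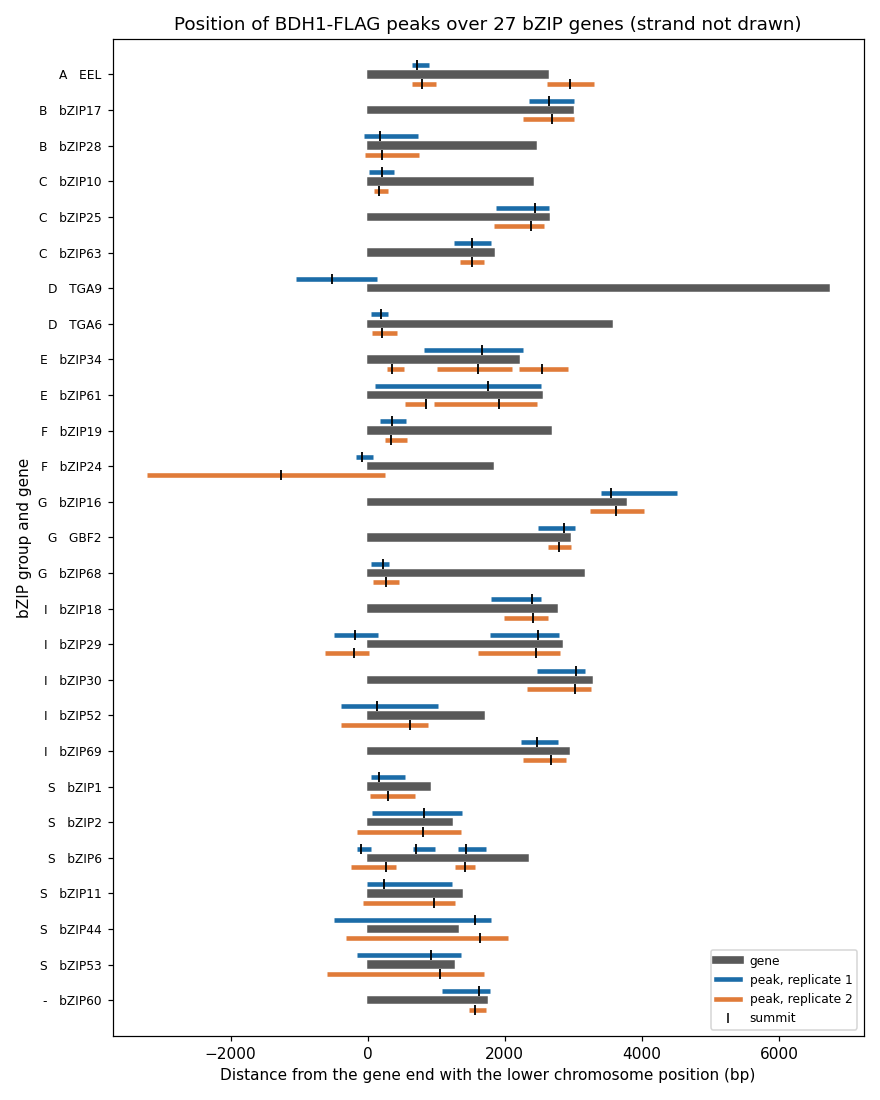
Peaks (coloured bars) and summits (ticks) of both replicates along the 27 bZIP genes with a peak in at least 1 list, in bp from the gene end with the lower chromosome position, with the gene as a dark bar. Most genes have a single interval near one end, the intervals over bZIP2, bZIP11, bZIP44 and bZIP53 cover 89.9% to 100% of the gene, and those over TGA9 and bZIP24 lie mostly outside it.

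The position of the peak was much the same over these genes as over genes in general. In 20 of the 26 genes the summit lay within 500 bp of a gene end in both lists (76.9%), beside 81.8% of the 12466 protein-coding genes. The exceptions were EEL, bZIP6, bZIP24, bZIP34, bZIP52 and bZIP61. The median distance from the summit to the nearer end, counted inwards, was 227.5 bp in replicate 1 and 267 bp in replicate 2 (mean 247 ± 27.9, SD, n = 2), beside 253.5 bp and 254 bp. The gene table gives no strand, so whether that end was the start of the gene could not be told. The summits of the 2 lists lay a median of 67.5 bp apart, and within 100 bp of each other in 17 of the 26 genes. The highest peaks overlapped between the lists in 24, all but EEL and bZIP6. These measures of agreement between the lists are given for the 26 genes alone, without the values over the 12466 genes.

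Some of these peaks also reached a neighbouring protein-coding gene. The highest peak reached another protein-coding gene in both lists for EEL and bZIP53, 2 of the 26 genes (7.69%), beside 11.7% of the 12466 genes. In EEL the intervals and the neighbours were different in the 2 lists. In replicate 1 alone this was also so for bZIP16 and bZIP6, and in replicate 2 alone for bZIP24. Counted per list, such a peak lay over 4 of the 26 genes in replicate 1, beside 1926 of the 12466 genes. In replicate 2 the counts were 3 and 2140.

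Gene length was set beside these counts because longer genes have more room for an interval. The 26 genes with a peak had a median length of 2499.5 bp, the 18 without one 1285.5 bp, and all protein-coding genes 2078 bp. All 9 members under 1000 bp were group S genes, and 1 had a peak, bZIP1, beside 14.8% of all protein-coding genes of that length. From 1000 to 1499 bp 4 of 9 members had a peak, all S1 genes, beside 32.9%. From 1500 to 1999 bp the counts were 4 of 5 beside 44.7%, from 2000 to 2499 bp 4 of 7 beside 53.1%, from 2500 to 2999 bp 9 of 9 beside 57.8%, and from 3000 bp upwards 4 of 6 beside 61.8%.

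**Figure D3:**
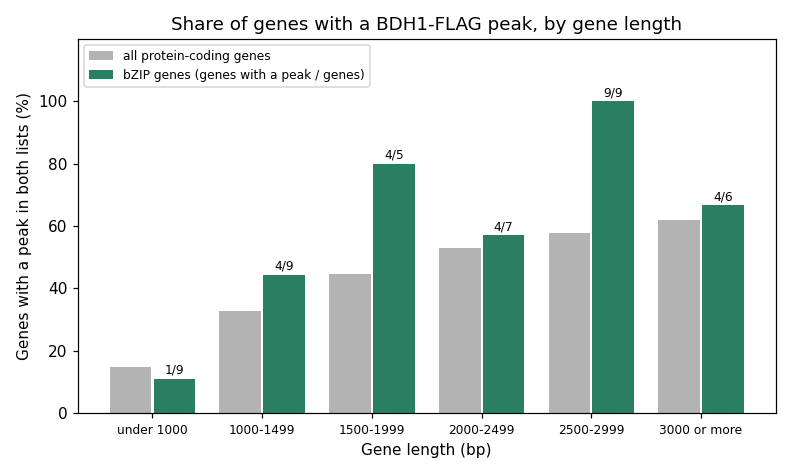
Percentage of genes with a BDH1-FLAG peak in both lists in 6 classes of gene length, for all protein-coding genes (grey) and for the bZIP genes (green, with genes with a peak over genes in the class). The grey bars rise from 14.8% to 61.8%, and the bZIP bars rest on 5 to 9 genes each, with 9 of 9 between 2500 and 2999 bp.

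Of the 18 genes without a peak, 10 belonged to group S and 2 each to A and I. Intervals lay within 1000 bp of 3 of them in both lists, bZIP3, bZIP70 and TGA10. The farthest was bZIP42, with the nearest interval 159808 bp away in replicate 1 and 159871 bp away in replicate 2, and for bZIP48 it was 49672 bp and 49662 bp away. The median over the 18 genes was 5007.5 bp in replicate 1 and 5029.5 bp in replicate 2.

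The gene table also names 21 family members without a BZIP number, which the name rule does not reach, and 14 of these had a peak in both lists (66.7%), beside 45.4% of all protein-coding genes. Their median length was 2833 bp, against 1849 bp for the 45 genes, and 57.8% of protein-coding genes of 2500 to 2999 bp had a peak in both lists. HY5, the light-signalling factor of group H, had a fold enrichment of 2.70 and 2.74, and its homolog HYH had 2.12 and 2.38, with the peak also over RBL14 in both lists. In replicate 2 the peak covered 17.9% of HYH and its summit lay 284 bp outside. GBF3 had 3.54 and 2.80, GBF4 3.53 and 3.03 (in replicate 2 shared with AT1G03960), and GBF1 2.49 and 2.10. Among the TGA genes, TGA2 had 2.15 and 2.24, TGA3 1.83 and 2.08, TGA5 2.637 and 2.304, and TGA7 2.308 and 2.558. The TGA7 peak covered 1.85% of the gene in replicate 1 and 3.81% in replicate 2. Its summit lay 302 and 136 bp outside the gene, and AT1G77930 was also reached in both lists. PAN (PERIANTHIA), which sets floral organ number, had a peak in replicate 1 alone, at 2.23. TGA1 and TGA4 had peaks in replicate 2 alone, the highest at 2.72 and 2.05, with the summit outside the gene and a neighbouring protein-coding gene also reached. That peak covered 2.15% of TGA1 and 0.831% of TGA4. Over TGA4 it was the highest of 3 intervals in replicate 2. In replicate 1 the nearest interval was 8 bp away from TGA1 and 3193 bp away from TGA4. Among the abscisic acid factors of group A, ABF1 had 2.85 and 2.12 and ABF4 2.23 and 1.87, ABF2 had a peak in replicate 2 alone at 1.64, and ABF3 had none. AREB3, also of group A, had 2.71 and 3.07, from a peak that also reached UBA2A in both lists. GBF4, given above, was placed in group A as well. VIP1 had 2.03 and 2.03.

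Genes that act on bZIP proteins or are known targets of them were listed by name, and 17 of the 34 whose name matched the table had a peak in both lists (50.0%), beside the 45.4% of all protein-coding genes. Their median length ran from 2343 bp in the group F set to 4011 bp in the HY5 set. Of protein-coding genes of 2000 to 2499 bp, 53.1% had a peak, and of those of 3000 bp or more 61.8%. The part of length was not tested. Of the 7 genes around HY5, 6 had a peak, among them COP1, the ubiquitin ligase that marks HY5 for degradation, with a fold enrichment of 2.52 and 2.74, DET1 with 2.76 and 2.64, and the pigment gene CHS with 2.43 and 2.11. SPA3 had a peak in replicate 2 alone. In the unfolded protein response 4 of 6 had one. S1P, the protease that frees bZIP17 and bZIP28, had 2.68 and 2.66, and the chaperone targets BIP1 and BIP2 had 2.89 and 3.25, and 3.56 and 2.87, while BIP3 had none. The nearest interval to BIP3 was 74 bp away in replicate 1 and 107 bp away in replicate 2. IRE1A had 2.10 and 1.84, and IRE1B had a peak in replicate 1 alone.

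Around groups C and S1, the kinase gene KIN10 had a fold enrichment of 3.13 and 2.97, from a peak that also reached HYP1 in both lists, and the proline dehydrogenase gene PRODH (ERD5) 2.58 and 2.27. KIN11 had a peak in replicate 2 alone, and the asparagine synthetase gene ASN1 had none. Around group A the kinase genes SNRK2.2, SNRK2.3 and OST1 had peaks, of which SNRK2.3 was the highest at 4.14 and 3.17, AFP1 had one in replicate 1 alone, and KEG had none. Of the 7 TGA partner genes 2 had a peak, NPR3 with 3.447 and 2.499 and NPR4 with 2.24 and 1.78. NPR1 had one in replicate 2 alone and BOP2 in replicate 1 alone, and BOP1, ROXY1 and ROXY2 had none. None of the 5 zinc transporter genes listed for bZIP19 and bZIP23 (ZIP1, ZIP3, ZIP4, ZIP5 and ZIP9) had a peak in either list.

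With the limit on −log10 q raised to 10 in both lists, 8 of the 45 genes kept a peak, beside 9.12% of all protein-coding genes. These were bZIP2, bZIP11, bZIP44 and bZIP53 of S1, bZIP17, bZIP29, bZIP61 and GBF2. With the limit at 5, 20 genes remained, beside 30.2%, and EEL, bZIP6, bZIP10, bZIP19, bZIP24 and bZIP68 were the 6 that did not. All 5 S1 genes were among the 20. An overlap of 100 bp left 25 genes, beside 44.8%, and a summit inside the gene in both lists left 24, beside 42%. Genes extended by 500 bp at either end gave 27, with TGA9 added, beside 52.1%.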

How the data were processed

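ChIP-seq libraries came from inflorescences, and 2 of the 3 samples, both BDH1-FLAG, were analysed here, each from its own deposited peak list (narrowPeak), so replicates were not pooled. The submitters' processing notes name Bowtie2 2.5.2, SAMtools, bedtools 2.31.1 and MACS2 2.2.9.1 and the build TAIR10. Their settings, the read filters and the control library are not given in the sources used here. The deposited columns used were the fold enrichment (a linear ratio), the −log10 q-value and the summit. The −log10 p-value deposited by the authors and the authors' score were not used in results. The read depth is unknown, so no counting interval is given.

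Genes, names and lengths came from the RefSeq table of assembly TAIR10.1, whose coordinates are not printed. It holds no strand and no sequence was used here, so the planned motif search and distances to gene starts were not run. As a check of the match, 41.2% and 42.3% of summits lay within 250 bp of a protein-coding gene end, against 21.9% to 23.6% after shifts of 2000 to 10000 bp. Positions are 1-based. Overlaps were computed in Python 3.11.15 with pandas 2.3.3, and the search for overlaps was tested on simulated intervals. No test was made, because lists of 1 group alone were analysed here. Values with n = 2 are means over the 2 lists, whose replicates may be technical.

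Values are given for members with a −log10 q of at least 10 in both lists, the 10 best by mean rank percentile, members with a peak in 1 list, those with several peaks in both lists, and a fixed set of well-known genes. The members, groups and gene lists were chosen with earlier results of these data known, and the S1 split and the 21 further family genes after values were seen. Of 36 partner genes listed, 34 had a matching name, and the other 2 were left out.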

Additional observations from a re-analysis of the deposited data

How the results depend on the processing

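Alternatives were stricter −log10 q limits, an overlap of 100 bp, a summit inside the gene, genes extended by 500 bp at either end, 1 list alone, and members by main symbol alone. The number of bZIP genes with a peak was 24 with a summit inside the gene, 25 with an overlap of 100 bp and 27 with extended genes, and 26 to 27 with 1 list alone. Main symbols alone gave 16 of 30 genes (53.3%). At a −log10 q of at least 10, 8 bZIP genes, 5 of the 9 groups, 7 partner genes and 2504 protein-coding genes kept a peak, and at 5 the last number was 8278, since fewer peaks enter. The median rank percentile and fold enrichment of the remaining members were 82.7 and 2.77 at 5, and 92.7 and 3.11 at 10. These limits take out weaker peaks, so a rise is built into them, and no value over all protein-coding genes is given beside it. Ranking by −log10 q gave a percentile of 77.4. Summits within 500 bp of a gene end in both lists remained in 7 of the 8 genes at a limit of 10. Without that limit, a window of 250 bp gave 7 of 26 genes, beside 20 of 26 with 500 bp. The share over all protein-coding genes is not given for the limit of 10 or the window of 250 bp. A peak shared with a neighbouring gene in both lists remained in 1 gene at 5 and 1 at 10, and 1 list alone gave 3 to 4. One list alone gave 13412 to 13667 protein-coding genes, 20 partner genes, 78.4 to 79.8 for the percentile, 2.67 to 2.69 for the fold and 21 to 23 genes near an end. Under the limits, overlap rules, extended genes and single lists, the S1 count was 5 except for 4 with a summit inside the gene and 4 at a limit of 10, and that of the other group S genes was 1, or 0 at either limit. No paired analysis was possible because lists of 1 group alone were analysed. Without read depth, a gene without a peak may lie under the limit of detection.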
